A study of Mus musculus with 6 samples.

Results

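The Ndrg1 locus was examined as the accessible chromatin around the mouse gene Ndrg1 in AE9a leukaemia cells, as mapped by ATAC-seq, an assay in which a transposase cuts and tags DNA where chromatin is open. Members were all peaks whose nearest transcription start site (TSS), in the annotation the authors' table carries, belongs to Ndrg1 and lies within 100000 bp. This gave 31 of the 175929 peaks of the series, and the gene itself was selected on the measured difference between oil and tamoxifen. The difference at these peaks is therefore given as a description, with no test. All values are tags, the read ends counted within a peak, divided by a size factor of the library, unless stated otherwise.

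The leukaemia was driven by retroviral AML1-ETO9a (AE9a), a truncated form of the fusion between the blood transcription factor RUNX1 and ETO, with GFP as its marker, which was introduced into mouse fetal liver cells. The cells carried the genotype Usp18+/f UBCER-Cre, that is, a floxed copy of Usp18 beside a normal one, with an ER-fused Cre that becomes active under tamoxifen. Its human ubiquitin C promoter is not restricted to a cell type. The leukaemia was passed into irradiated recipient mice, and once the mice were sick they were injected with corn oil (labelled Usp18+/f) or with tamoxifen in that oil to delete the floxed copy. GFP+ Lin- c-Kit+ cells were sorted from the spleen 3 days after the first injection in both groups, and the mice of the study were young adults of both sexes. The oil group held the libraries numbered 1, 2 and 4, and the tamoxifen group those numbered 1, 3 and 4. No group received tamoxifen without Cre or without the floxed allele, so that loss of Usp18, Cre activity and the drug itself cannot be told apart here. Each group had n = 3 libraries, and each SD and p-value is over libraries. The labels do not say whether each came from a separate mouse, while the study's RNA methods give 3 mice per group for the sorted cells and state that a set of them also served for ATAC-seq. Where libraries did not come from separate mice, the p-values measure only a spread that may be technical.

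NDRG1 (N-myc downstream regulated 1) is a cytoplasmic protein of a family with an alpha/beta hydrolase fold. It is known as a stress-responsive gene, induced by hypoxia through HIF1 and repressed by MYC family proteins, and its product is phosphorylated by SGK1 and then by GSK3. It has been described as a suppressor of metastasis in several carcinomas, its loss in humans causes a demyelinating neuropathy, and it is known in blood from maturing mast cells. USP18, the gene under study, is a protease specific for ISG15, a modifier related to ubiquitin, and acts as a brake on type I interferon signalling at its receptor.

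In the mm10 build, Ndrg1 is on the minus strand of chr15:66929318-66969640 in the reference annotation, so that sequence upstream of the gene has the higher coordinates. The TSS implied by the distances in the table, 66969642, lay 2 bp from the annotated one. Of the 31 peaks, 14 lay within the gene, 3 in intron 3 and 11 in intron 1. The promoter held 1 peak and the remaining 16 peaks lay upstream of it. No peak (0) named Ndrg1 lay beyond the limit of 100000 bp. The farthest was at -92972 bp, with 21.7 tags in oil and 28.7 in tamoxifen. The next peak outward, at 127340 bp upstream, was named for St3gal1 and had 28.6 tags in oil and 39.3 in tamoxifen, which did not pass the test described below (adjusted p 0.760 by DESeq2). On the 3' side the last Ndrg1 peak lay at +19253 bp in intron 3, and the next one, at 65210 bp from the TSS, was named for Wisp1. The reference annotation also places the divergent long noncoding gene Gm2895 (chr15:66969323-67013039) at this promoter. The promoter peak lies in an exon of Gm2895 and the peaks at -4327 and -28792 bp in its introns. The peak at -70626 bp lies in an exon of the long noncoding gene Gm31342.

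The sequence beneath the upstream peaks is shown first, because these held the largest differences of the locus. The 4 upstream peaks that passed both thresholds below, the peak at -28792 bp and the promoter peak are printed as the 200 bp around the peak centre, read 5′ to 3′ from the GRCm38 reference (the sequence of mm10). Capitals mark matches, on either strand, to 4 motifs. For RUNX factors, whose binding domain AE9a keeps, the letters searched were TGTGGT. For the GATA factors of blood development they were AGATAA, for AP-1 they were TGANTCA, which is the same motif on both strands, and for the core of the hypoxia response element they were ACGTG.
Upstream peak at -54931 bp, chr15:67024473-67024672, plus strand: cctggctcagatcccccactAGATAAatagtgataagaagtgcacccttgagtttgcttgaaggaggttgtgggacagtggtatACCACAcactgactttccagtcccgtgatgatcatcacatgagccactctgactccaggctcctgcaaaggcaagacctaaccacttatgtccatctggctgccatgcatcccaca
Upstream peak at -61150 bp, chr15:67030692-67030891, plus strand: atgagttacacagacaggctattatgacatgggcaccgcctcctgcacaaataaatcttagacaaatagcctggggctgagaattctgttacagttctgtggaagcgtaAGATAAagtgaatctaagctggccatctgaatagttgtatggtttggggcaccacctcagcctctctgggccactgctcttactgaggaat
Upstream peak at -61535 bp, chr15:67031077-67031276, plus strand: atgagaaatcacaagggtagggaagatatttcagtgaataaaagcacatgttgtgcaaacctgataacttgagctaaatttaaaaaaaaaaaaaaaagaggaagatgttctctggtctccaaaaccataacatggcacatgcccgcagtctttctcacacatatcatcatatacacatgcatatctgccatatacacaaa
Upstream peak at -79187 bp, chr15:67048729-67048928, plus strand: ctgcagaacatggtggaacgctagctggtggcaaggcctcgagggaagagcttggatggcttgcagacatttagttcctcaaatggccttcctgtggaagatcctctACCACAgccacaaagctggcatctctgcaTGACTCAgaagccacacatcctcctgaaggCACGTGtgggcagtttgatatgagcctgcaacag
Upstream peak at -28792 bp, chr15:66998334-66998533, plus strand: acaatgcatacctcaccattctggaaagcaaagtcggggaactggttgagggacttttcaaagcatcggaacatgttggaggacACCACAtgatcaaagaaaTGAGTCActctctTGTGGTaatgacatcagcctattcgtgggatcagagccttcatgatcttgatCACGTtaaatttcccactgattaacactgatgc
Promoter peak at -135 bp, chr15:66969677-66969876, plus strand: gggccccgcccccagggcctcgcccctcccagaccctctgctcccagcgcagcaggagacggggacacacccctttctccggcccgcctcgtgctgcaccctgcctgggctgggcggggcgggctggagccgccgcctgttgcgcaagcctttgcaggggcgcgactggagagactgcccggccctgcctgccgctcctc

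The upstream windows differed from each other in the motifs they held. The window at -54931 bp held a GATA and a RUNX match, that at -61150 bp a GATA match, and that at -79187 bp a RUNX match, an AP-1 match and the hypoxia core, here as part of the E-box CACGTG, which overlaps it. The window at -28792 bp had a RUNX match on either side of an AP-1 match, and the hypoxia core further along. The window at -61535 bp held none of the capitalised motifs in the letters searched, and other spellings of a motif were not searched. It held 1 match to the glucocorticoid element (GNACANNNTGTNC), which 0.406% of all peak windows hold, together with matches to STAT (TTCNNNGAA) and CEBP (TTGCNNAA). The 3 intron 1 peaks that passed both thresholds held no match to any of the 12 motifs searched.

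Motif frequencies at the locus are given beside those of all peaks. RUNX matches were present in 6 of 31 windows, or 19.4%, against 18.7% of the 175724 windows of the same length over all peaks. GATA, searched as AGATAA alone, was present in 3 (9.68% against 15.1%), AP-1 in 3 (9.68% against 6.61%) and the hypoxia core in 4 (12.9% against 12.6%). CEBP was present in 5 (16.1% against 6.45%), STAT in 2 (6.45% against 4.86%) and NF-kB (GGGANNNTCC) in 1 (3.23% against 2.65%). The interferon response element (GAAANNGAAA, in 2.03% of all windows), PU.1 (GAGGAAGT, 3.75%) and the oestrogen element (GGTCANNNTGACC, 0.0114%) had no match in these 200 bp windows. Among the 8 windows of peaks that differed more than 2-fold, RUNX was present in 3, and GATA, AP-1 and the hypoxia core in 2 each. The promoter window stood apart in composition, with 76.0% G and C and 16 CpG dinucleotides, where the median window of all peaks had 50.5% and 3. The window at +779 bp in intron 1 held 16 CpG as well. Only 4 of the 31 peaks (12.9%) were annotated to a repeat, against 22.5% of all peaks, and none (0) of the 8 that differed more than 2-fold.

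As the base of the comparison, the whole series is given briefly. Libraries held 57.4 to 74.7 M mapped tags (1 M is 1000000 tags), of which 17.5 to 21.1 M lay in peaks. Over all peaks, chi-square divided by its degrees of freedom was 1.03 to 1.22 for pairs of oil libraries and 1.48 to 2.68 for pairs of tamoxifen libraries, so the tamoxifen libraries spread more. The tamoxifen library numbered 4 stood farthest from its group. Tags were rounded and tested over all peaks with the Wald test of DESeq2 with Benjamini-Hochberg adjustment, and calls required both more than 2-fold change and an adjusted p below 0.05. In this fit 1034 peaks were called higher after tamoxifen and 116 lower. The 15 peaks named for Usp18, the targeted gene, summed to 1714 to 1787 tags in oil and 1714 to 1768 in tamoxifen and none (0) was called, but accessibility outside the deleted part does not check a deletion.

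At the Ndrg1 locus, 7 of 31 peaks (22.6%) were called and all 7 were higher after tamoxifen, where the same call was made for 0.654% of all peaks, 0.588% in the higher and 0.0659% in the lower direction. As the gene was selected on this contrast, nothing is read from that excess. In 17 of the 31 peaks every tamoxifen library lay above every oil library, against 11.9% of all peaks, and in 2 every tamoxifen library lay below, against 10.0%. The fitted change was upward in 24 and downward in 7, with a median log2 change of 0.75, where that of all peaks was -0.001. By number of called peaks, 10 of 19781 genes had more than Ndrg1 (1700001K19Rik, Esrrb, Gm14005, Hsph1, Nedd4l, Nek6, Plcg2, Rgs1, Snord52 and Ston2), while 628 genes had at least as many peaks.

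The count depended on which library was left out. Without the tamoxifen library numbered 3 only 1 of the 7 was called, without that numbered 1 there were 3, and without the oil libraries numbered 1, 2 and 4 there were 3, 4 and 4. Without the tamoxifen library numbered 4, the one that stood apart, 8 were called. That fit gave all 31 peaks an adjusted p. Without the tamoxifen libraries numbered 3 and 1, only 21 and 23 of the 31 were given one. Without the oil libraries numbered 1, 2 and 4, only 26, 17 and 20 were. The rest could not be called in those fits. No Ndrg1 peak (0) was called lower in any of these fits.

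Summed over the 31 peaks, the oil libraries held 2060, 2249 and 2121 tags and the tamoxifen libraries 2977, 3135 and 2725. The groups did not overlap, with a mean of 2143 ± 96.6 (SD, n = 3) in oil and 2946 ± 206 in tamoxifen, a ratio of 1.37. Without the promoter peak the ratio was 1.47. In bulk libraries, a larger share of cells with an open site and a more open site in each cell cannot be told apart.

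**Figure D1:**
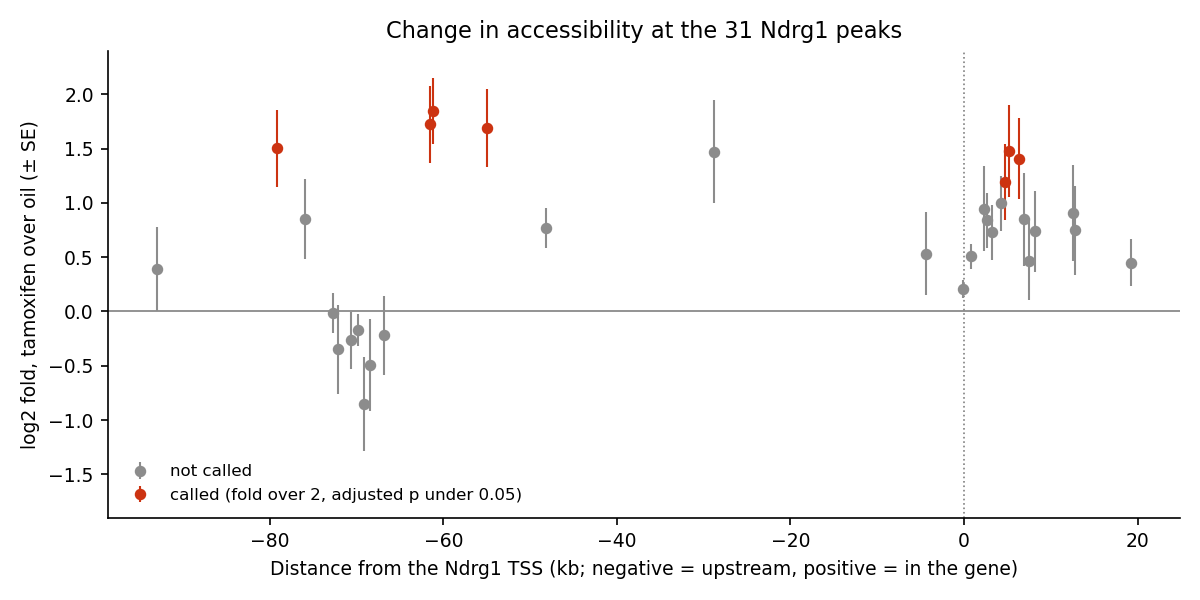
Fitted log2 fold change, tamoxifen over oil, with its standard error (y axis) for the 31 Ndrg1 peaks against distance from the TSS in kb (x axis, upstream negative). Peaks within the gene and most upstream peaks lie above 0, the 7 called peaks (red) fall between 1.19 and 1.85, and the 7 peaks from -66856 to -72706 bp lie below 0.

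The promoter peak (chr15:66969674-66969879, centred 135 bp upstream of the TSS) was by far the most accessible of the locus. It held 672, 703 and 643 tags in the oil libraries numbered 1, 2 and 4, and 779, 818 and 735 in the tamoxifen libraries numbered 1, 3 and 4. All tamoxifen libraries lay above all oil libraries, though by little, with a log2 change of 0.21 (SE 0.085) that fell far short of 2-fold. Per length, the promoter held 326 tags per 100 bp in oil, which was above 99.2% of all peaks, whereas the highest of the other 30 members held 118 tags per 100 bp and their median was 8.94, below the 16.9 of the median peak of the series. The promoter made up 31.4% ± 1.15 of the tags of the locus in oil and 26.4% ± 0.482 in tamoxifen (SD, n = 3), as its own difference was smaller than that of most other peaks.

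Upstream of the promoter, the largest differences lay from -54931 to -61535 bp. The peak at -61150 bp (chr15:67030622-67030960, intergenic), whose window holds the GATA match, had 30.9, 20.5 and 23.3 tags in oil and 117, 85.2 and 64.7 in tamoxifen. Every tamoxifen library had more than any oil library, and the log2 change was 1.85 (SE 0.30). Next to it, the peak at -61535 bp (chr15:67031024-67031329), with the glucocorticoid element match, had 20.96, 25.4 and 17.5 tags in oil and 89.9, 86.3 and 34.9 in tamoxifen. Here the tamoxifen library numbered 4 lay much nearer to the oil libraries than the other two did, and the log2 change was 1.72 (SE 0.36). The peak at -54931 bp (chr15:67024432-67024713), with the RUNX and GATA matches, had 11.0, 23.9 and 28.7 tags in oil and 49.3, 102 and 55.9 in tamoxifen, again without overlap. Its log2 change was 1.69 (SE 0.36), and it was the only one of the 7 called peaks that stood in the peak lists of both groups.

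Farther out, the peak at -79187 bp (chr15:67048723-67048934) had 17.1, 17.1 and 29.1 tags in oil and 54.1, 88.6 and 40.0 in tamoxifen, with a log2 change of 1.50 (SE 0.36). Its groups did not overlap. Nearer to the gene, the peak at -28792 bp (chr15:66998310-66998557, in an intron of Gm2895) had 7.17, 8.29 and 18.4 tags in oil and 28.03, 41.2 and 21.9 in tamoxifen. The groups did not overlap here either, but its log2 change of 1.47 (SE 0.47) was not called. The peak at -48193 bp (chr15:67017721-67017948), the strongest of the 5 from -28792 to -61535 bp, had 84.4, 123 and 131 tags in oil and 173, 174 and 232 in tamoxifen, a log2 change of 0.77 (SE 0.19) with the tamoxifen library numbered 4 as the highest.

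**Figure D2:**
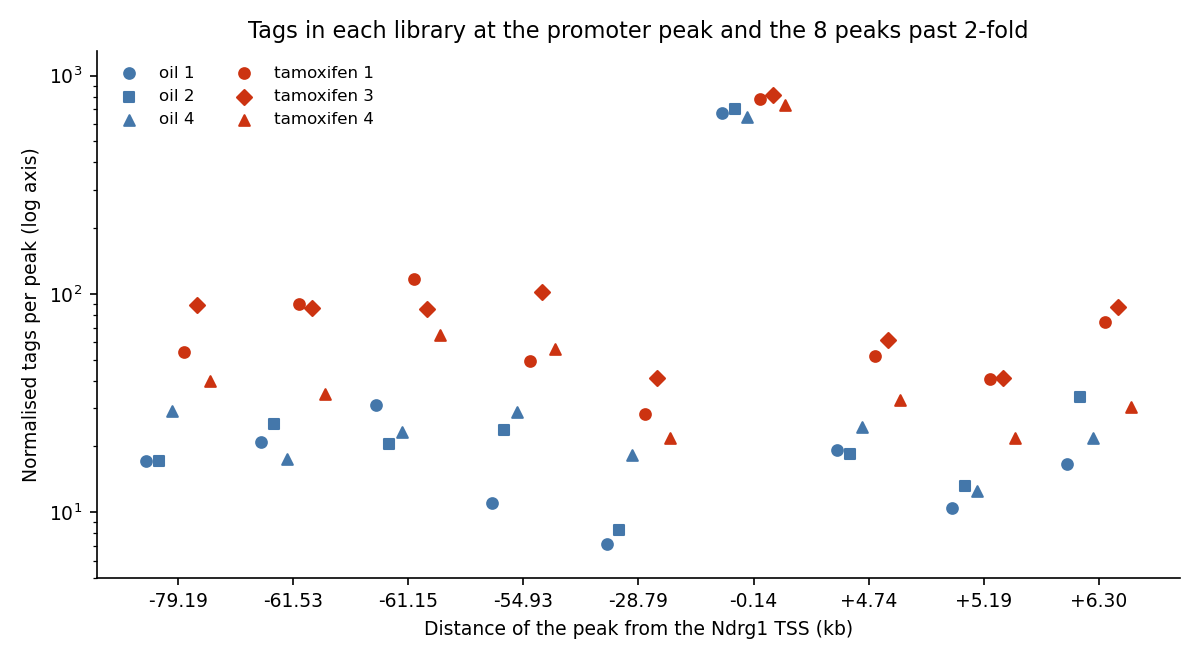
Normalised tags per peak on a log axis (y) in each of the 6 libraries at the promoter peak and the 8 peaks that differed more than 2-fold, ordered by distance from the TSS in kb (x). Oil libraries are blue and tamoxifen libraries red, the symbols mark the library number, and the red points lie above the blue ones in every column but the rightmost, where the tamoxifen library numbered 4 lies below the oil library numbered 2.

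Within the gene, intron 1 carried a row of 11 peaks over 7885 bp, all with a log2 change above 0, from 0.47 to 1.48, and 3 of them were called. Its sum was 501, 604 and 553 tags in oil and 1012, 1059 and 733 in tamoxifen, a ratio of 1.69. The tamoxifen library numbered 4 was the lowest of its group, but still above all oil libraries.

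The called intron 1 peaks lay close together. That at +5191 bp (chr15:66964293-66964607) had 10.5, 13.2 and 12.5 tags in oil and 40.6, 41.2 and 21.9 in tamoxifen, a log2 change of 1.48 (SE 0.42) without overlap. That at +6301 bp (chr15:66963075-66963606) had 16.5, 33.6 and 21.95 tags in oil and 73.9, 87.5 and 30.3 in tamoxifen. Its log2 change was 1.41 (SE 0.37), but its groups overlapped, since the tamoxifen library numbered 4 lay below the oil library numbered 2. That at +4740 bp (chr15:66964789-66965013) had 19.3, 18.5 and 24.6 tags in oil and 51.7, 61.3 and 32.6 in tamoxifen, a log2 change of 1.19 (SE 0.35) without overlap.

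The neighbouring peak at +4230 bp (chr15:66965083-66965739) was just short of the fold limit. It had 51.8, 51.2 and 49.7 tags in oil and 109, 130 and 67.5 in tamoxifen, a log2 change of 0.995. The strongest peak of intron 1, at +779 bp (chr15:66968713-66969012), had 230, 279 and 249 tags in oil and 364, 368 and 345 in tamoxifen. Its groups were clearly apart at a log2 change of 0.51 (SE 0.12), against 0.21 at the promoter peak beside it.

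Intron 3 held 3 peaks, and in all 3 the tamoxifen libraries lay above the oil libraries. Their sum was 86.6, 112 and 105 tags in oil and 166, 144 and 141 in tamoxifen, a ratio of 1.49, and none (0) was called. No Ndrg1 peak (0) lay farther into the gene than intron 3.

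The locus did not move as a block. The 7 peaks between -66856 and -72706 bp, which take in the Gm31342 exon, all had log2 changes below 0, from -0.85 to -0.01, and none (0) was called in either direction. Their sum was 553, 549 and 508 tags in oil and 430, 444 and 537 in tamoxifen, so that the tamoxifen library numbered 4 lay among the oil libraries and the groups overlapped. The strongest, at -69881 bp (chr15:67039418-67039627), had 260, 257 and 226 tags in oil and 193, 196 and 269 in tamoxifen, which overlapped. At -69117 bp (chr15:67038650-67038867) the oil libraries had 24.8, 31.2 and 21.1 tags and the tamoxifen libraries 13.05, 10.6 and 17.7, the lowest log2 change of the locus at -0.85 (SE 0.43). This stretch sat between the stretches that were higher after tamoxifen: the 5 peaks from -28792 to -61535 bp summed to 191 ± 33.2 tags in oil and 452 ± 40.2 in tamoxifen (SD, n = 3), a ratio of 2.36, and the 2 peaks at -75911 and -79187 bp to 43.0 ± 7.09 and 99.6 ± 16.9, a ratio of 2.31. These stretches were set after the values were seen. The outermost peak, at -92972 bp, overlapped between the groups with a log2 change of 0.39.

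**Figure D3:**
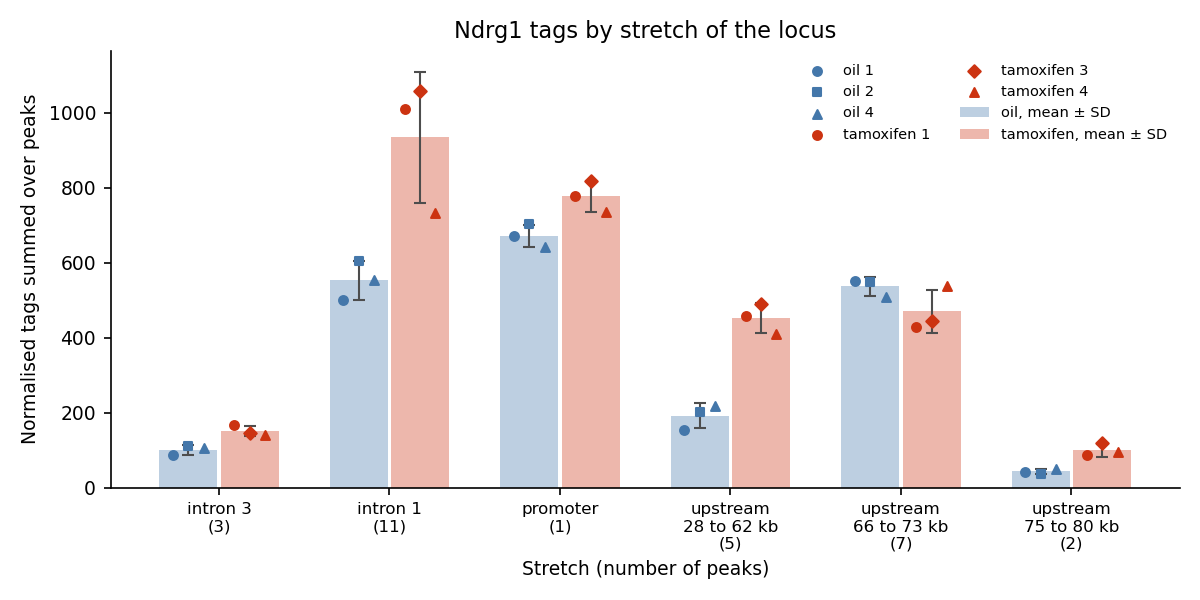
Normalised tags summed over the peaks of each stretch (y axis, starting at 0), with bars for the group mean, lines for the SD and 1 symbol for each library. The groups stand farthest apart, as a ratio, at the 5 peaks 28 to 62 kb upstream (2.36) and the 2 peaks 75 to 80 kb upstream (2.31), whereas at the 7 peaks 66 to 73 kb upstream the tamoxifen mean is the lower and the libraries overlap.

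Of the 22 peaks that were neither the promoter peak nor past 2-fold, 15 had log2 changes above 0 and 7 below, from -0.85 to 0.995. The peak lists of the study followed the same division. Of the 31 peaks, 15 stood in the lists of both groups, 3 in the oil list alone and 13 in the tamoxifen list alone, and 6 of the 7 called peaks were in the tamoxifen list alone. All 3 peaks of the oil list alone lay in the stretch from -66856 to -72706 bp. The lists were made from the same reads as the tags and are no separate evidence. Over the whole series, 11.2% of peaks stood in the tamoxifen list alone and 17.4% in the oil list alone.

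The tamoxifen library numbered 4 was the lowest of its group at 6 of the 7 called peaks and at 21 of the 31 members, and the highest at 6. On a scale from the oil mean at 0 to the mean of the other tamoxifen libraries at 1, it lay between 0.218 and 0.813 at the called peaks. The labels give no value that would separate this library from the others.

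The neighbouring genes give the setting of the locus, and their peaks were not among those the rule took. Within 500000 bp of the Ndrg1 TSS, 93 peaks were named for other genes, and 7 of them (7.53%) were called, all 7 higher, against 0.654% of all peaks. The called neighbours lay in Sla (3), St3gal1 (2), Tg (1) and 1700012I11Rik (1). Without the tamoxifen library numbered 3, or without the oil library numbered 1 or 2, there were 2. Without the tamoxifen library numbered 1 there were 3, and without the oil library numbered 4 there were 4. Without the tamoxifen library numbered 4 there were 10, of which 8 were higher and 2 lower. All 93 peaks were given an adjusted p in that fit, but only 71 to 83 in the others, where the rest could not be called.

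Sla encodes an adaptor that dampens antigen receptor signalling. Its intronic peak at chr15:66815532-66815799 rose from 60.1, 58.5 and 43.5 tags to 106, 133 and 121, a log2 change of 1.17 (SE 0.22) with an adjusted p of 5.3e-05 by DESeq2. The adjoining Sla peak at chr15:66815256-66815501 rose by a log2 change of 1.01 with an adjusted p of 0.00306, and that at chr15:66789374-66789669 by 1.12 with an adjusted p of 0.0201. On the upstream side, the noncoding gene 1700012I11Rik had the largest change of the neighbourhood, at chr15:67235175-67235379, from 12.7, 3.41 and 6.72 tags to 39.6, 51.3 and 25.6, a log2 change of 2.29 (SE 0.48) with an adjusted p of 0.000498. St3gal1, a sialyltransferase that caps glycans and the nearest coding gene upstream of Ndrg1, had its most marked call at chr15:67142261-67142609, from 25.4, 25.4 and 30.5 tags to 68.6, 85.2 and 44.2, a log2 change of 1.28 with an adjusted p of 0.00626. A further St3gal1 peak, at chr15:67130123-67130324, had the smallest adjusted p of the neighbourhood, 1.0e-05, at a log2 change of 0.94, below the fold limit.

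Wisp1, also known as Ccn4, which encodes a secreted matricellular protein, is the nearest coding gene on the 3' side. Of its 4 peaks none (0) was called, the smallest adjusted p being 0.0889, and it summed to 296 to 355 tags in oil and 395 to 540 in tamoxifen. The peaks of Phf20l1, Tmem71 and Lrrc6, farthest on that side, had no call (0 of 8, 0 of 7 and 0 of 5). Phf20l1 and Tmem71 had medians below 0, at -0.41 and -0.05 on the log2 scale.

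**Figure D4:**
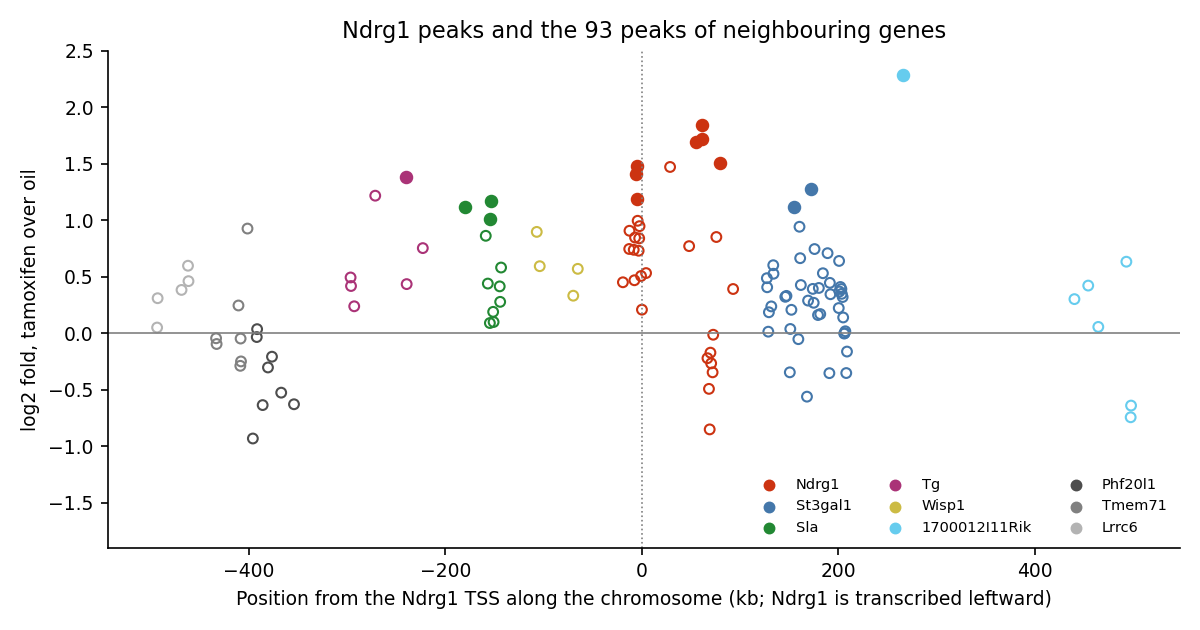
Fitted log2 fold change, tamoxifen over oil (y axis), of the 31 Ndrg1 peaks and the 93 peaks of other genes within 500000 bp, against position from the Ndrg1 TSS in kb along the chromosome (x axis). Colours mark the gene and filled points the called peaks, 7 of Ndrg1 and 7 of other genes, and the peaks of Phf20l1 and Tmem71 at the left lie mostly below 0.

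The paralogues of Ndrg1 showed no such difference that passed the test. Ndrg2, Ndrg3 and Ndrg4 had 10, 9 and 29 peaks, of which none (0 of 48) was called by DESeq2, the smallest adjusted p was 0.293, and 1 had an unadjusted p under 0.05. By edgeR the count was 0 as well. At their promoters the tags were 598 ± 22.4 in oil and 609 ± 27.7 in tamoxifen for Ndrg2, 452 ± 24.8 and 472 ± 39.9 for Ndrg3, and 131 ± 7.24 and 151 ± 20.1 for Ndrg4 (SD, n = 3), with adjusted p of 0.990, 0.969 and 0.845. The promoter peak of Ndrg1, at 673 ± 29.7 and 777 ± 41.6, is described above without a test.

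Other genes induced by hypoxia, or regulating the response to it, had few called peaks. Of 639 peaks of 44 such genes, 5 (0.782%) were called, all 5 higher, close to the 0.654% of all peaks, with a median log2 change of -0.01. They belonged to Stc2 (3), Slc2a3 (1) and Egln1 (1). Stc2 encodes a secreted glycoprotein, and its peak at chr11:31355839-31356090 rose from 4.41, 2.44 and 8.51 tags to 51.2, 54.0 and 31.7, with an adjusted p of 8.6e-07. Slc2a3, a glucose transporter, rose at chr6:122758802-122759037 from 94.9 ± 10.9 to 207 ± 44.1 tags, with an adjusted p of 1.3e-06. The second Stc2 peak, at chr11:31366891-31367131, rose from 9.34 ± 4.34 to 42.2 ± 15.2 tags, with an adjusted p of 0.000549. Without the tamoxifen library numbered 3 none (0) of the 5 was called. Without the tamoxifen library numbered 1 or the oil library numbered 2 there was 1, and without the oil library numbered 1 there were 3. Without the tamoxifen library numbered 4 there were 10, of which 9 were higher. All 639 peaks were given an adjusted p in that last fit, but only 464 to 582 in the others, where the rest could not be called.

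Vegfa, a growth factor gene induced by hypoxia, had 44 peaks and no call (0), with a promoter at 628 ± 24.7 tags in oil and 677 ± 58.4 in tamoxifen (adjusted p 0.865). Over its 44 peaks the median log2 change was 0.38. In 14 of the 44 every tamoxifen library lay above every oil library, against 11.9% of all peaks. In none (0) did every tamoxifen library lie below, against 10.0%. The sums ran from 5289 to 5630 tags in oil and 5302 to 8274 in tamoxifen, which overlapped. Its smallest adjusted p was 0.0301, at a change below the fold limit. Hif1a, which encodes the hypoxia-inducible factor subunit, had 739 ± 44.5 and 771 ± 56.2 at its promoter (adjusted p 0.955). Its 22 peaks had no call (0) and summed to 2428 to 2560 tags in oil and 2642 to 2846 in tamoxifen, which did not overlap, with 0.0364 as the smallest adjusted p, again below the fold limit.

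Kinases and regulators of NDRG1 comprised 13 genes with 260 peaks, of which 1 (0.385%) was called, against 0.654% of all peaks. With no fold limit 3 had an adjusted p under 0.05 by DESeq2, the smallest, 0.000183, at a change below the fold limit. The called peak lay at -36087 bp from the TSS of Nr3c1, the glucocorticoid receptor gene. It rose from 50.2, 37.5 and 31.8 tags to 73.9, 80.2 and 86.1, a log2 change of 1.01 with an adjusted p of 0.0125. It was not called without the oil library numbered 2 or 4 or without any 1 of the tamoxifen libraries. Without the tamoxifen library numbered 4 the 1 call of this list was at another peak. All 260 peaks were given an adjusted p in that fit, but only 194 to 226 in the others named here. Sgk1, the kinase that phosphorylates NDRG1, had no call (0) among its 25 peaks. Its promoter held 64.3 ± 9.14 tags in oil and 57.8 ± 5.76 in tamoxifen (adjusted p 0.965 by DESeq2). The 25 peaks summed to 3749 to 3780 tags in oil and 3071 to 4765 in tamoxifen, a range that takes in that of oil. Their smallest adjusted p by DESeq2 was 0.0910.

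The labelled cell type was checked against its markers. The 78 peaks of Kit, Cd34, Myb, Mpo, Flt3 and Gfi1 summed to 7067 to 7248 tags in oil and 7448 to 8148 in tamoxifen. Of these 1 was called (1.28%, against 0.654% of all peaks), the Cd34 promoter. It rose from 94.6 ± 21.8 to 270 ± 60.5 tags (adjusted p 8.3e-12 by DESeq2). The genes of this list did not move alike. The 7 Cd34 peaks summed to 303 to 409 tags in oil and 556 to 730 in tamoxifen, and the 7 Mpo peaks to 296 to 322 and 350 to 427. The 36 Kit peaks summed to 3771 to 3893 and 3791 to 4135, which overlapped. The Kit promoter held 757 ± 9.06 and 787 ± 60.8 tags. Markers of other cells that could enter the sort had these sums in oil and tamoxifen: 1095 to 1245 and 1283 to 1413 over 23 T cell peaks, 2032 to 2106 and 2050 to 2262 over 37 B cell peaks, 9424 to 9846 and 8438 to 9265 over 81 erythroid peaks, 2677 to 2769 and 2865 to 3064 over 44 mature myeloid peaks, and 2129 to 2238 and 2292 to 2579 over 29 peaks of mast cells and basophils. None (0) of the peaks of T cells, B cells, mature myeloid cells, or mast cells and basophils was called. Below the fold limit, 1 T cell peak had an adjusted p under 0.05 by DESeq2 (3.7e-05), as did 1 peak of mast cells and basophils (0.0398). For B cells and mature myeloid cells there was none (0). Ms4a1 was the only listed marker without a peak. The sums for T cells, mature myeloid cells, mast cells and basophils, and the labelled cells were thus higher in every tamoxifen library than in every oil library, as for Ndrg1, and the erythroid sum was lower. Their part in the Ndrg1 values was not tested.

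Genes whose library profile was most like that of Ndrg1 were taken by the smallest root mean square difference of log2 summed tags, each centred on its oil mean, over the 6 libraries among 11420 genes. They were Ktn1 (0.0273), S100a11 (0.0361), Synj2 (0.0384), Disc1 (0.0389) and Igfbp5 (0.0457). Each had its lowest tamoxifen value in the library numbered 4, as Ndrg1 did, which follows from the way they were chosen. Ktn1 summed to 500, 536 and 496 tags in oil and 683, 745 and 642 in tamoxifen over 8 peaks, and Synj2 to 1856, 1900 and 1837 and 2686, 2806 and 2389 over 35 peaks. By the log2 ratio of its summed tags, 0.46, Ndrg1 ranked 279 of these 11420 genes, while 10 of 19781 genes had more called peaks. As the gene was selected on this contrast, nothing is read from either rank.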

How the data were processed

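ATAC-seq was measured in 6 libraries, 3 oil and 3 tamoxifen, grouped by their titles. The authors mapped reads to mm10 with Bowtie2, called peaks with HOMER, merged the lists of the groups and counted tags within the merged peaks. The deposited values are estimated counts of tags in steps of 0.5, not normalised, in which 1 position could add no more than 3 tags. Tag totals per library were taken from the file headers. The score the deposited table gives each peak, from the authors' peak lists, was not used in any result. Versions of these tools are not given in the sources used here.

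Tags were rounded to whole numbers and all 175929 peaks were fitted together with DESeq2 1.42.0 (R 4.3.3), without covariates and with Benjamini-Hochberg adjustment over all peaks. The study's methods fit only peaks over 3000 bp from a TSS, which was run as an alternative, since the Ndrg1 promoter would otherwise be left out. Size factors, the test (edgeR 4.0.16), a filter of 10 tags in 3 libraries, thresholds, distances and libraries were varied 1 at a time. The fits were tested on simulated data. The limit on tags at a position can lower the counts of strong peaks such as the Ndrg1 promoter, and its effect was not measured.

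Values in every library were given for the peak nearest the TSS and for Ndrg1 peaks with an absolute log2 change over 1, for up to 5 called neighbours and up to 3 called peaks of each gene list by adjusted p, and for the promoters of Ndrg2, Ndrg3, Ndrg4, Sgk1, Hif1a and Vegfa. Other peaks were named after their values were seen. Calls within the erythroid list are not reported here. The members, gene lists and motifs were chosen with earlier results of these data known. Motifs were searched in the 200 bp around each peak centre in 175724 of 175929 peaks, those with a complete sequence on an assembled chromosome.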

Additional observations from a re-analysis of the deposited data

How the results depend on the processing

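Of 118 values under an alternative that answer a comparison, 77 kept within 1.5 times the reported count or within 1 SD, and 41 moved. None (0) reversed. The Ndrg1 count of 7 stayed between 6 and 10 under every size factor, test, filter and threshold tried, and its summed log2 ratio of 0.46 between 0.44 and 0.54, the latter over distal peaks alone. Limited to 50000 bp or to 10000 bp from the TSS, 3 Ndrg1 peaks were called, of 18 and of 13, because the called upstream peaks lie farther out. Groups that did not overlap were found at 12 of the 18 and 7 of the 13, against 19 of all 31. All 12 and all 7 were higher after tamoxifen, a state found at 11.9% of all peaks of the series. The count over all peaks became 1815 by edgeR and 2448 with no fold limit. For the kinases and regulators the count became 0 with total tags in peaks as size factors and 0 over distal peaks alone. It became 2 by edgeR, 1 higher and 1 lower, and 3 with no fold limit. For hypoxia genes it became 11 with no fold limit, 10 higher and 1 lower. The causes were not tested.

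Leaving out 1 library at a time gave 1 to 8 calls for Ndrg1, 2 to 10 for neighbours, 0 to 10 for hypoxia genes, 0 to 1 for kinases and regulators, 0 to 0 for the NDRG family and 369 to 2710 over all peaks. The Ndrg1 log2 ratio was then 0.41 to 0.51 and the count without overlap 19 to 25. That count can hardly fall when a library is removed, since groups already apart stay apart. Nothing is therefore read from its range. Without the tamoxifen library numbered 4 all 175929 peaks were given an adjusted p, and in the other fits 124766 to 155463. Peaks without an adjusted p could not be called. Of the 9 peaks given in full, the log2 change at -28792 bp moved by more than 1 SD, to 2.07, without the oil library numbered 4.

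The replicate block could be fitted on the 4 libraries numbered 1 and 4 alone. It gave 0 calls for Ndrg1, 0 for neighbours, 0 for hypoxia genes, 0 for kinases and regulators and 52 over all peaks, with fewer samples than the fit reported. Only 19 of the 31 Ndrg1 peaks and 131587 of all peaks were given an adjusted p in this fit, and the rest could not be called. The Ndrg1 log2 ratio was 0.44 in it. The log2 changes of the 8 peaks past 2-fold ran from 0.88 at +4740 bp to 1.70 at -61150 bp. The labels do not say what a shared number means. The difference between libraries 1 and 4 in oil correlated with that in tamoxifen at 0.01 over 167451 peaks. In oil these libraries differed by little more than counting noise, with a chi-square divided by its degrees of freedom of 1.19. The correlation therefore cannot decide whether libraries of the same number were paired. Before normalisation the Ndrg1 peaks held 6.5 to 805.5 tags per library.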
